A study of Homo sapiens with 12 samples.

Results

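The 34 genes described here encode the proteins that fold, check and dispose of proteins in the endoplasmic reticulum (ER), together with the sensors that adjust them. They were chosen by name, and all 34 were found among the 47634 gene IDs of each of the 12 count files. All 34 also passed the filter on low counts that left 11051 genes to test. The libraries came from HepG2, a human hepatocellular carcinoma line, either wild type (WT) or labelled an ATP7B knockout (KO). The ATP7B protein is an ATPase that pumps copper out of hepatocytes, and its mutation causes Wilson disease, in which the study asked about autophagy. The 4 groups, of 3 libraries each, were ATP7B KO cells given copper for 24 h, untreated ATP7B KO cells, WT cells given copper for 24 h and untreated WT cells. The labels name no clone of the KO cells, call the libraries biological replicates and do not say what separated them. The p-values below thus measure the spread between these libraries, which may be technical. The part of other differences between the KO and WT cells was not tested. The sources used here give neither the copper dose nor the site of the edit.

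Secreted and membrane proteins enter the ER through the SEC61 channel, are held by chaperones such as BiP (HSPA5) and GRP94 (HSP90B1), gain disulfide bonds from protein disulfide isomerases, and pass through the lectin cycle of calnexin and calreticulin. Clients that fail to fold are pulled back to the cytosol and degraded by ER-associated degradation (ERAD). When unfolded proteins accumulate, the sensors IRE1 (ERN1), ATF6 and PERK (EIF2AK3) start the unfolded protein response, in which cleaved ATF6 and spliced XBP1 raise transcription of chaperone and ERAD genes, and hepatocytes, which secrete most plasma proteins, depend heavily on this machinery.

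Library totals ran from 976658 to 3829151 counts, so that 3 counts equal 3.07 CPM in untreated KO replicate 2 and 0.783 CPM in untreated WT replicate 2. CPM, the unit of all levels below, is a gene's count over its library's total, scaled to the customary common depth. Some libraries stood away from the others. Untreated KO replicates 1 and 2 and copper-treated WT replicate 1 scored 111, 120.4 and 23.9 on the leading principal component of log2 CPM, which held 44.2% of the variance, whereas the remaining 9 scored below 0. They are called the libraries that stood apart, and values without them are given beside several calls below and, for members that passed only without them, together after the tests. In the order above, these libraries had the lowest totals, 1443372, 976658 and 1873703 counts. They also had the fewest genes with counts, 14232, 13481 and 15012. Ribosomal protein genes held their lowest shares there, 5.75%, 4.99% and 8.89%. The part of depth or library quality in the values below was not tested. In untreated KO the remaining library, replicate 3, scored -4.4. Replicates 1 and 2 differed less from each other (chi-square 6.11 per degree of freedom) than from replicate 3 (52.2 and 44). Replicate 3 thus differed from both others of its group, and which of these libraries were unusual was not tested. Values without replicates 1 and 2 rest on replicate 3 alone. Their SE and p-values measure no spread within untreated KO. ATP7B was still counted in the KO libraries, at 3.92 to 6.77 CPM with copper and 2.05 to 11.6 CPM untreated, against 3.87 to 5.34 CPM with copper and 12.3 to 13.1 CPM untreated in WT. Tags at the 3′ end outside the edit would not check the KO label. Of 10 hepatocyte markers, 0 were at 0 counts in any library. Their summed level was 3762 to 3978 CPM in copper-treated KO, 8765 to 10491 CPM in untreated KO, 9626 to 10406 CPM in copper-treated WT and 20130 to 20828 CPM in untreated WT libraries. Markers of other cell types summed to 195 to 287, 218 to 443, 322 to 850 and 1364 to 1493 CPM in the same 4 groups, with 1 to 4 of them at 0 in each library. Lysozyme (LYZ) made up most of that sum, and without it the markers summed to 16.7 to 82.0, 22.9 to 61.4, 17.8 to 57.6 and 25.3 to 38.4 CPM. Their part in the results below was not tested.

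Several of the 34 promoters carry the short motif through which the unfolded protein response is known to act, the ER stress response element (ERSE), which is CCAAT, any 9 bases, then CCACG. A shorter form, ERSE-II, is ATTGG, any 1 base, then CCACG. Both were searched on both strands in the window from 250 bases before to 50 bases after each annotated start (RefSeq, build GRCh38.p14). A window was at hand for 31 of the 34 genes, all but PDIA3, SEC24D and DERL1. An ERSE lay in the windows of 7 genes, CALR, CANX, CRELD2, HSP90B1, HSPA5, PDIA6 and XBP1, and in 0.0769% of the 35116 windows of all genes. An ERSE-II lay in those of HERPUD1, HYOU1 and SDF2L1 and in 0.0541% of all windows. The XBP1 element TGACG followed by TGG, whose last 5 bases can be the CGTGG end of a reversed ERSE or ERSE-II, was found for DNAJC10, HYOU1 and TXNDC5 and in 0.729% of all windows. In HYOU1 it overlapped an ERSE-II. A match is a description of the letters and not evidence of a bound factor. Of the 18 members called in any comparison 17 had a window, and 6 of these held an ERSE or ERSE-II. Their stretches follow, 5′ to 3′ on the gene's strand, because the genes that carry them moved in different directions. Capitals mark the fixed ends of each element, written CCAAT and CCACG or as their complements ATTGG and CGTGG.
HSPA5, chr9:125241366-125241434, minus strand: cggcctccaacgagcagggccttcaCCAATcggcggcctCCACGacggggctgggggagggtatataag
HSP90B1, chr12:103930191-103930364, plus strand: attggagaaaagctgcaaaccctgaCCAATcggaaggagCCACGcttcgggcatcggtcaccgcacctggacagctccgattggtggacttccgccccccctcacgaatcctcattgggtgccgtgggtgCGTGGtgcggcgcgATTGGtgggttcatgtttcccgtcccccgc
PDIA6, chr2:10812828-10812896, minus strand: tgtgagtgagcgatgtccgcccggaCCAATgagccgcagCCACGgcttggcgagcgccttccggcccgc
CALR, chr19:12938359-12938427, plus strand: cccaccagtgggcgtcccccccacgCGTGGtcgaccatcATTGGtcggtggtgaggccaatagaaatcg
HERPUD1, chr16:56932000-56932060, plus strand: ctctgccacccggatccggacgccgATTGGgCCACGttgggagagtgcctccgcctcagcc
SDF2L1, chr22:21642089-21642149, plus strand: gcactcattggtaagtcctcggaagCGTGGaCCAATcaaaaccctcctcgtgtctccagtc

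**Figure D1:**
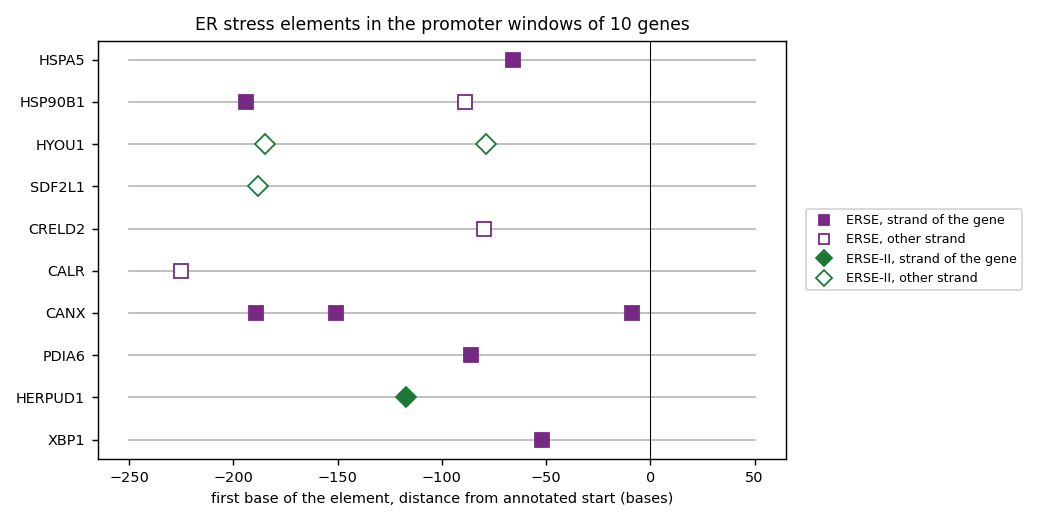
Positions of ERSE (squares) and ERSE-II (diamonds) in the promoter windows of the 10 genes with a match, filled on the gene's strand and open on the other, with the x axis giving the distance in bases of the element's first base from the annotated start. HSPA5 has an ERSE beginning 66 bases before its start, HSP90B1 has 2, and the 3 marks of CANX are the same element seen from 3 annotated starts.

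The 34 genes held the largest share of counts in untreated WT cells. They took 0.781%, 0.769% and 0.781% of the counts in copper-treated KO libraries, against 0.859%, 0.829% and 1.01% in untreated KO libraries. In WT cells they took 0.775%, 0.761% and 0.773% with copper, against 1.23%, 1.23% and 1.24% untreated. The 3 untreated WT libraries lay above the other 9, and the copper-treated libraries of both lines lay below all untreated ones. Shares of a library's counts are relative. In such bulk samples, fewer cells of a kind and less RNA per cell cannot be told apart, and the mitochondrially encoded genes moved too, at 5.82% to 9.46% of counts in the 9 lower libraries and 2.97% to 3.80% in untreated WT, a part that was not tested. HSPA5 was the most abundant member and made up 28.2% to 30.1% of the set in copper-treated KO, 14.7% to 26.8% in untreated KO, 24.3% to 29.2% in copper-treated WT and 28.7% to 29.8% in untreated WT libraries.

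**Figure D2:**
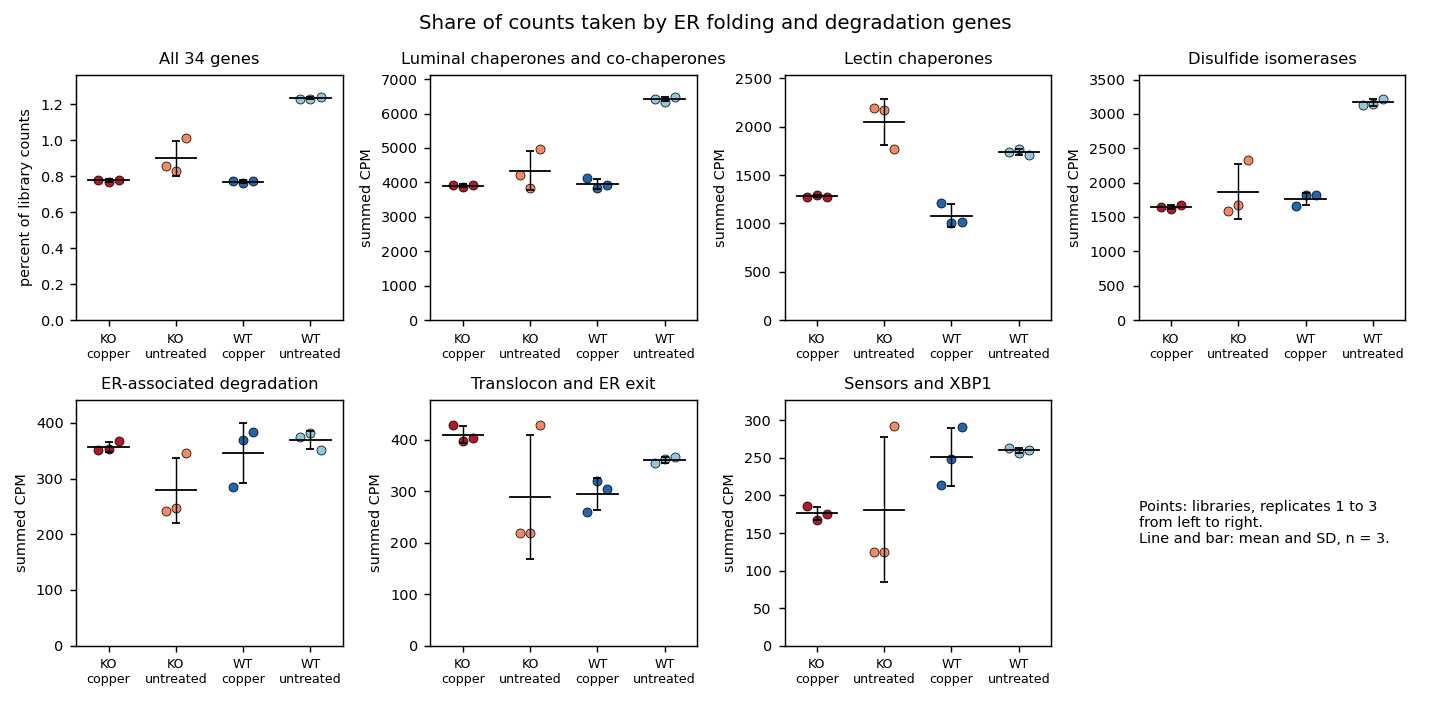
Percent of each library's counts taken by all 34 genes (first panel) and summed CPM of each functional class (other panels), with 1 point per library, the group mean as a line and the SD as a bar. Luminal chaperones summed to 3865 to 3930 CPM in copper-treated KO and 3845 to 4974 CPM in untreated KO, and to 3841 to 4121 CPM in copper-treated WT and 6350 to 6468 CPM in untreated WT libraries.

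In KO cells copper moved the set both ways. Of the 34 members 5 rose, the co-chaperones DNAJB9 and DNAJB11, the ERAD scaffold HERPUD1 and the sensors ERN1 and ATF6. Another 6 fell, the chaperones HSP90B1 and SDF2L1, the lectin chaperone CALR, the disulfide isomerases PDIA4 and TXNDC5 and the mannosidase-like EDEM3. Over all 11051 genes 15.2% rose and 18.5% fell, so the counts were near the background and are not a result about the set. In 6 members every copper-treated KO library lay above every untreated one and in 8 below, beside 19.1% and 25.1% of all genes. "Rose" and "fell" mean an adjusted p under 0.05 in edgeR's quasi-likelihood test, adjusted by the Benjamini-Hochberg method over all genes. The median log2 fold change was 0.28 over the members and 0.01 over all genes tested, and 20 members were above 0. The 11 calls became 6 and 7 without copper-treated KO replicate 1 or 3, and 7 and 21 without untreated KO replicate 1 or 3. For fits that leave libraries out, the share of all genes called is not given, here or below. Their counts of calls are therefore not a result about the set.

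In WT cells copper was followed by lower levels in most members, few of which passed the test. ERN1 rose, and PDIA4, PDIA6, CALR and the secreted stress factor MANF fell, which is 2.94% and 11.8% of the 34 members where 8.23% of all genes rose and 6.68% fell. The median was -0.38 over the members and -0.03 over all genes, and 25 of 34 members were below 0. In 20 of 34 members every copper-treated library lay below every untreated one, which held for 27.1% of all genes, and 2 were separated upwards, which held for 21.3%. The 5 calls became 3, 3 and 3 without copper-treated KO replicates 1, 2 and 3, and 8 and 11 without untreated KO replicates 2 and 3. They became 1 and 3 without copper-treated WT replicates 2 and 3, and 2, 2 and 1 without untreated WT replicates 1, 2 and 3. The share of all genes called in these fits is not given.

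Untreated KO cells differed from untreated WT cells in 10 members, among them 3 of the 7 disulfide isomerases, which fell. HSPA5, PDIA3, PDIA6, P4HB, HERPUD1, ERN1 and ATF6 fell, and DNAJC3, SDF2L1 and the ERAD channel component DERL2 rose, that is 7 and 3 of 34, or 20.6% and 8.82%, beside 14% and 17.9% of all genes. The median was -0.56 over the members and -0.02 over all genes, and 29 of 34 were below 0. In 12 members every untreated KO library lay below every untreated WT library and in 3 above, beside 19.1% and 25.7% of all genes. This comparison shares the untreated KO libraries with the copper comparison in KO and the untreated WT libraries with that in WT, so a member low in untreated KO cells for any reason counts in both. The calls numbered 21 without untreated KO replicate 3 and 5 without untreated WT replicate 3.

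In copper 2 members passed the test between the lines. DNAJC3 and SDF2L1 rose and 0 fell in KO against WT, where 5.77% of all genes rose and 8.03% fell. An unadjusted p under 0.05 held for 10 members, and its share over all genes is not given. DESeq2 called 2 higher and 1 lower, and limma voom 2 higher. The median was 0.20 over the members and 0.05 over all genes. In 13 members every copper-treated KO library lay above every copper-treated WT library and in 9 below, beside 26.4% and 20% of all genes. The 2 calls became 11 without untreated KO replicate 3, 1 without copper-treated WT replicate 1 or untreated WT replicate 1, and 0 without any 1 of copper-treated KO replicates 1, 2 and 3, copper-treated WT replicate 2 and untreated WT replicates 2 and 3.

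**Figure D3:**
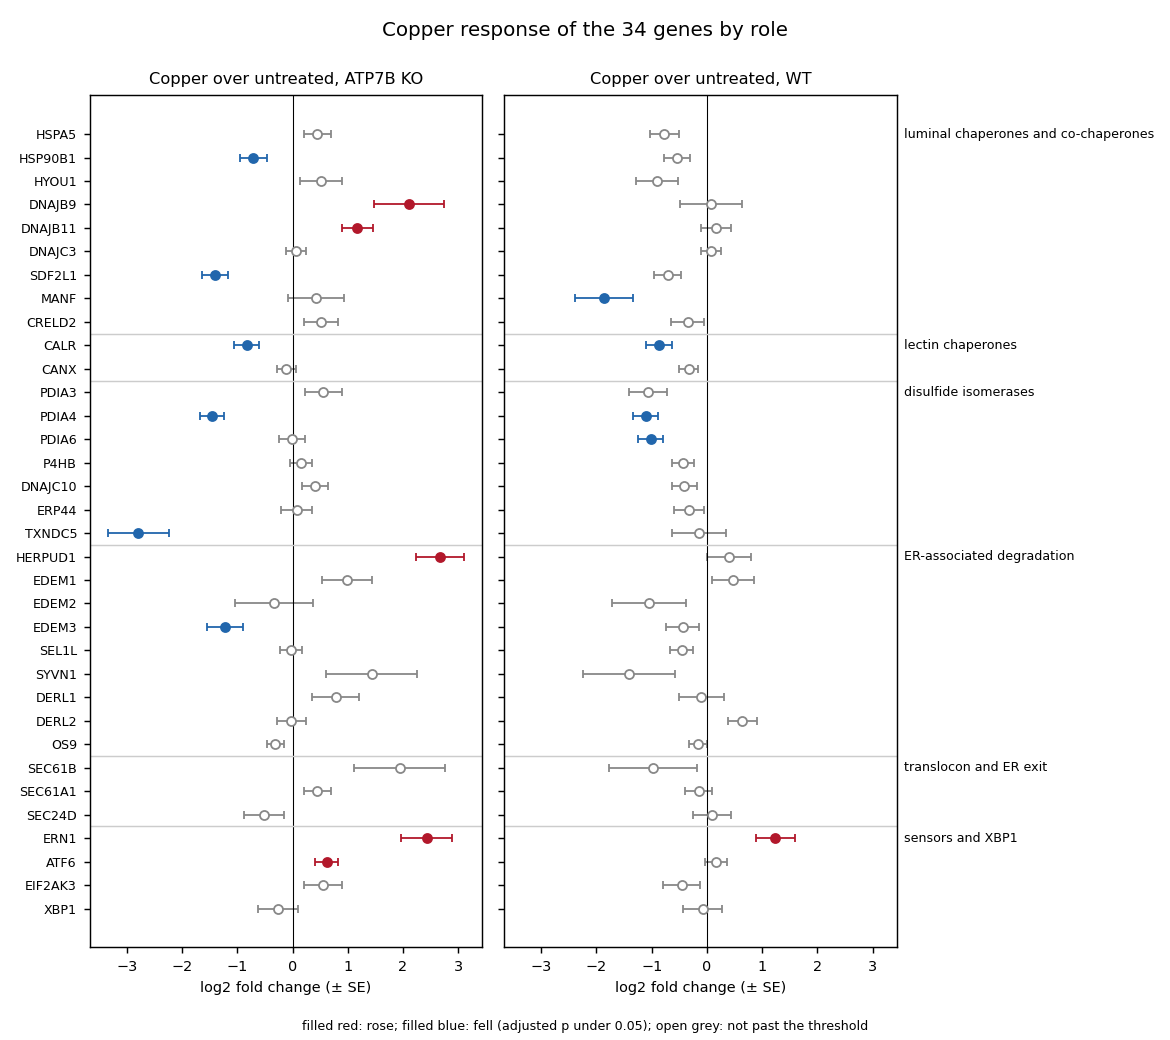
Log2 fold change of each member with copper, KO in the left panel and WT in the right, with bars of 1 SE and filled points for members past the threshold. HERPUD1 and ERN1 lie furthest to the right in KO (2.67 and 2.43) and TXNDC5 furthest to the left (-2.79), and 25 of 34 members lie below 0 in WT.

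Of the sensors, ERN1 encodes IRE1, the kinase and endonuclease that splices XBP1 mRNA. Its level was 8.19, 11.7 and 14.3 CPM in the copper-treated KO libraries and 1.39, 3.07 and 2.44 CPM in the untreated KO libraries. It was 13.3, 17.0 and 11.2 CPM in the copper-treated WT libraries and 8.44, 3.13 and 6.18 CPM in the untreated WT libraries. Copper-treated libraries lay above untreated ones in both lines without overlap. Untreated KO lay below all others, but on only 2, 3 and 8 counts. Its replicate 2, at 3.07 CPM, was barely below untreated WT replicate 2, at 3.13 CPM. ERN1 rose with copper in KO by 2.43 ± 0.46 (adjusted p = 0.0022) on the log2 scale and in WT by 1.24 ± 0.36 (adjusted p = 0.038), and fell in untreated KO against WT, at -1.50 ± 0.47 (adjusted p = 0.03). The rise in KO passed under all 18 alternatives. The call in WT ended without any 1 of the copper-treated libraries of either line or untreated WT replicate 2 or 3 (adjusted p 0.05 to 0.15). The call between untreated lines ended without untreated KO replicate 1 or 3 or untreated WT replicate 1 or 3 (0.061 to 0.11) and with limma voom (0.072).

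ATF6 encodes the membrane-bound transcription factor that is cut in the Golgi upon ER stress. It stood at 39.2, 36.8 and 38.2 CPM in the copper-treated KO libraries and 30.5, 22.5 and 27.2 CPM in the untreated KO libraries. WT cells had 57.1, 48.8 and 40.7 CPM in the copper-treated WT libraries and 38.5, 44.9 and 49.1 CPM in the untreated WT libraries. The 3 untreated KO libraries were the lowest of the 12. ATF6 rose with copper in KO at 0.62 ± 0.21 (adjusted p = 0.038) and fell in untreated KO against WT at -0.84 ± 0.21 (adjusted p = 0.011), while copper in WT gave 0.17 ± 0.20 (adjusted p = 0.60). The copper call ended without any 1 library other than untreated KO replicate 1, copper-treated WT replicates 1 and 3 and untreated WT replicate 1 (adjusted p 0.05 to 0.10), with no filter (0.28) and under relative log expression scaling (0.053), and the untreated call without untreated WT replicate 3 (0.053).

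EIF2AK3 encodes PERK, the kinase that slows translation. It measured 27.4, 24.7 and 28.3 CPM in the copper-treated KO libraries and 7.62, 27.6 and 24.7 CPM in the untreated KO libraries. WT values were 20.8, 17.0 and 20.5 CPM in the copper-treated WT libraries and 29.3, 27.9 and 24.4 CPM in the untreated WT libraries. Untreated KO replicate 1 was far below the rest of its group, and the copper-treated WT libraries lay below the untreated ones. The difference with copper was 0.55 ± 0.34 (adjusted p = 0.22) in KO and -0.46 ± 0.33 (adjusted p = 0.38) in WT. XBP1, the transcription factor whose mRNA IRE1 splices, was at 111, 94.6 and 94.8 CPM in the copper-treated KO libraries and 85.9, 71.7 and 238 CPM in the untreated KO libraries. It was at 123, 166 and 219 CPM in the copper-treated WT libraries and 187, 181 and 181 CPM in the untreated WT libraries. The untreated KO libraries spread more widely than any other group, with replicates 1 and 2 lowest of the 12 and replicate 3 highest. The difference in XBP1 with copper was -0.27 ± 0.36 (adjusted p = 0.58) in KO and -0.08 ± 0.35 (adjusted p = 0.90) in WT, neither past the threshold. XBP1 passed once the 3 libraries that stood apart were left out, at -1.07 ± 0.14 (adjusted p = 6.2e-08) with copper in KO, -1.03 ± 0.12 (4.8e-09) in KO against WT in copper and -1.21 ± 0.18 (1.3e-05) for the difference of the copper effects. Tags near the 3′ end count spliced and unspliced XBP1 mRNA alike, so IRE1 activity cannot be read from them.

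Among the luminal chaperones, HSPA5 encodes BiP, the ER's HSP70. It stood at 2351, 2166.5 and 2279 CPM in the copper-treated KO libraries and 1541.5, 1215 and 2719.8 CPM in the untreated KO libraries. WT cells had 1881, 2079.7 and 2260.3 CPM in the copper-treated WT libraries and 3656, 3518 and 3634.5 CPM in the untreated WT libraries. All 9 libraries other than untreated WT lay below the untreated WT ones, and untreated KO replicates 1 and 2 were the lowest. HSPA5 fell in untreated KO against WT at -1.12 ± 0.26 (adjusted p = 0.0075), or 2.18-fold lower, and the call held under all 18 alternatives, at -0.61 ± 0.11 without the libraries that stood apart. With copper it was at 0.45 ± 0.25 (adjusted p = 0.19) in KO and -0.77 ± 0.26 (adjusted p = 0.061) in WT. In copper the difference between the lines was 0.10 ± 0.25 (adjusted p = 0.84). Without the libraries that stood apart, the copper value was -0.09 in KO, where untreated KO was replicate 3 alone, and -0.67 in WT. The WT difference passed under 5 of the 18 alternatives, DESeq2 and limma voom among them.

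HSP90B1, which encodes the HSP90 of the ER, was at 1008, 1141 and 1072.5 CPM in the copper-treated KO libraries and 2062, 2133 and 1487 CPM in the untreated KO libraries. It was at 1958, 1350.3 and 1251 CPM in the copper-treated WT libraries and 2207.5, 2276 and 2272 CPM in the untreated WT libraries. Copper-treated KO libraries were the lowest group, below all others. HSP90B1 fell with copper in KO at -0.71 ± 0.25 (adjusted p = 0.041). The value became -0.29 without the libraries that stood apart, where untreated KO was replicate 3 alone. The call ended without any 1 library other than untreated KO replicate 3 and copper-treated WT replicates 1 and 3 (adjusted p 0.054 to 0.12). In WT the difference was -0.54 ± 0.24 (adjusted p = 0.16).

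The J-domain proteins, which recruit BiP to its clients, rose where they passed the test. DNAJB9 (ERdj4), a repressor of IRE1, had few counts, 7.12, 6.28 and 9.16 CPM in the copper-treated KO libraries and 0, 3.07 and 2.44 CPM in the untreated KO libraries. In WT it had 1.07, 4.79 and 5.42 CPM in the copper-treated WT libraries and 3.69, 4.70 and 2.81 CPM in the untreated WT libraries. The copper-treated KO libraries lay above all others. It rose with copper in KO at 2.11 ± 0.64 (adjusted p = 0.025), a call that ended without copper-treated KO replicate 1 or 3 or untreated KO replicate 1 (adjusted p 0.053 to 0.074), and was at 0.07 ± 0.56 (adjusted p = 0.95) in WT. DNAJB11 (ERdj3) was at 161, 147 and 139 CPM in the copper-treated KO libraries and 47.8, 61.4 and 106.5 CPM in the untreated KO libraries. WT levels were 71.5, 129 and 119 CPM in the copper-treated WT libraries and 104, 89.8 and 94.9 CPM in the untreated WT libraries. Again the copper-treated KO group was above all others, and DNAJB11 rose there by 1.17 ± 0.28 (adjusted p = 0.0073) under all 18 alternatives, or 2.25-fold. Without the libraries that stood apart the rise was 0.66 ± 0.14. In WT it was 0.17 ± 0.27 (adjusted p = 0.72).

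DNAJC3 (p58IPK), which restrains PERK, differed between the lines. Its level was 50.2, 52.3 and 58.9 CPM in the copper-treated KO libraries and 49.9, 55.3 and 61.6 CPM in the untreated KO libraries. In WT it was 28.8, 33.1 and 35.6 CPM in the copper-treated WT libraries and 34.8, 31.3 and 27.8 CPM in the untreated WT libraries. All 6 KO libraries lay above all 6 WT ones. DNAJC3 rose in KO against WT by 0.70 ± 0.18 (adjusted p = 0.013) untreated and 0.69 ± 0.18 (adjusted p = 0.026) in copper, whereas copper gave 0.07 ± 0.18 (adjusted p = 0.79) in KO and 0.08 ± 0.18 (adjusted p = 0.81) in WT. The untreated call ended without untreated WT replicate 2 or 3 (adjusted p 0.054 to 0.059) and with no filter (0.13). The call in copper ended without any 1 of the copper-treated KO libraries, copper-treated WT replicate 1 or 2 or untreated WT replicate 2 or 3 (0.052 to 0.10) and with no filter (0.26).

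SDF2L1, a stress-induced partner of ERdj3 and BiP, was the member with the largest rise in untreated KO against WT. It was at 101, 109 and 114 CPM in the copper-treated KO libraries and 382, 283 and 255 CPM in the untreated KO libraries. It was at 81.1, 51.0 and 49.2 CPM in the copper-treated WT libraries and 94.1, 107 and 102 CPM in the untreated WT libraries. The untreated KO libraries were the highest 3 of the 12, and copper-treated KO overlapped untreated WT. SDF2L1 rose in untreated KO against WT by 1.48 ± 0.24 (adjusted p = 0.0014) and in copper by 0.80 ± 0.24 (adjusted p = 0.045), and fell with copper in KO at -1.40 ± 0.24 (adjusted p = 0.0012). The rise between untreated lines and the fall in KO passed under all 18 alternatives. The call in copper ended without any 1 library other than the untreated KO ones and copper-treated WT replicate 1 (adjusted p 0.067 to 0.16), with no filter (0.11) and under relative log expression scaling (0.054). With copper in WT the value was -0.71 ± 0.24 (adjusted p = 0.064). SDF2L1 and HERPUD1 both carry an ERSE-II and moved in opposite directions with copper in KO and in untreated KO against WT, which share the untreated KO libraries.

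MANF, a secreted stress factor that binds BiP, was at 42.7, 36.0 and 41.0 CPM in the copper-treated KO libraries and 15.9, 14.3 and 63.2 CPM in the untreated KO libraries. In WT it was at 4.27, 14.8 and 23.6 CPM in the copper-treated WT libraries and 53.5, 49.1 and 58.1 CPM in the untreated WT libraries. Copper-treated WT replicate 1 was lowest of the 12, and untreated KO replicates 1 and 2 lay far below replicate 3. MANF fell with copper in WT at -1.86 ± 0.53 (adjusted p = 0.036), or 3.62-fold lower, at -2.45 without copper-treated WT replicate 3 and -1.40 ± 0.18 without the libraries that stood apart. The call ended without any 1 of the copper-treated KO libraries, copper-treated WT replicate 1 or 2 or the untreated WT libraries (adjusted p 0.057 to 0.11). In KO it was at 0.42 ± 0.51 (adjusted p = 0.54), and at -0.48 without the libraries that stood apart, where untreated KO was replicate 3 alone. Of the 2 luminal members not called anywhere, HYOU1, the large HSP70 that exchanges nucleotide on BiP, ran from 56.3 to 240 CPM, and CRELD2, a stress-induced isomerase-like protein, from 19.2 to 51.9 CPM. HYOU1 was at -0.91 ± 0.38 (adjusted p = 0.13) with copper in WT and -1.03 ± 0.38 (adjusted p = 0.055) in untreated KO against WT.

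Both lectin chaperones belong to the cycle that holds glycoproteins. CALR, soluble calreticulin, stood at 711, 746.5 and 749 CPM in the copper-treated KO libraries and 1573, 1585 and 1061 CPM in the untreated KO libraries. WT cells had 726, 545.5 and 564 CPM in the copper-treated WT libraries and 1109, 1191 and 1127 CPM in the untreated WT libraries. Copper-treated libraries lay below untreated ones in each line without overlap. CALR fell with copper at -0.83 ± 0.23 (adjusted p = 0.016) in KO and -0.87 ± 0.23 (adjusted p = 0.025) in WT. The KO value became -0.35 without the libraries that stood apart, where replicate 3 was the only untreated KO library. The KO call ended without any 1 of the copper-treated KO libraries or untreated KO replicate 1 (adjusted p 0.052 to 0.058). The WT call ended without copper-treated WT replicate 2 or 3 or any untreated WT replicate (0.066 to 0.097). CANX, its membrane-bound partner calnexin, ran from 448 to 709 CPM and was at -0.11 ± 0.17 (adjusted p = 0.63) with copper in KO and -0.33 ± 0.17 (adjusted p = 0.21) in WT.

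**Figure D4:**
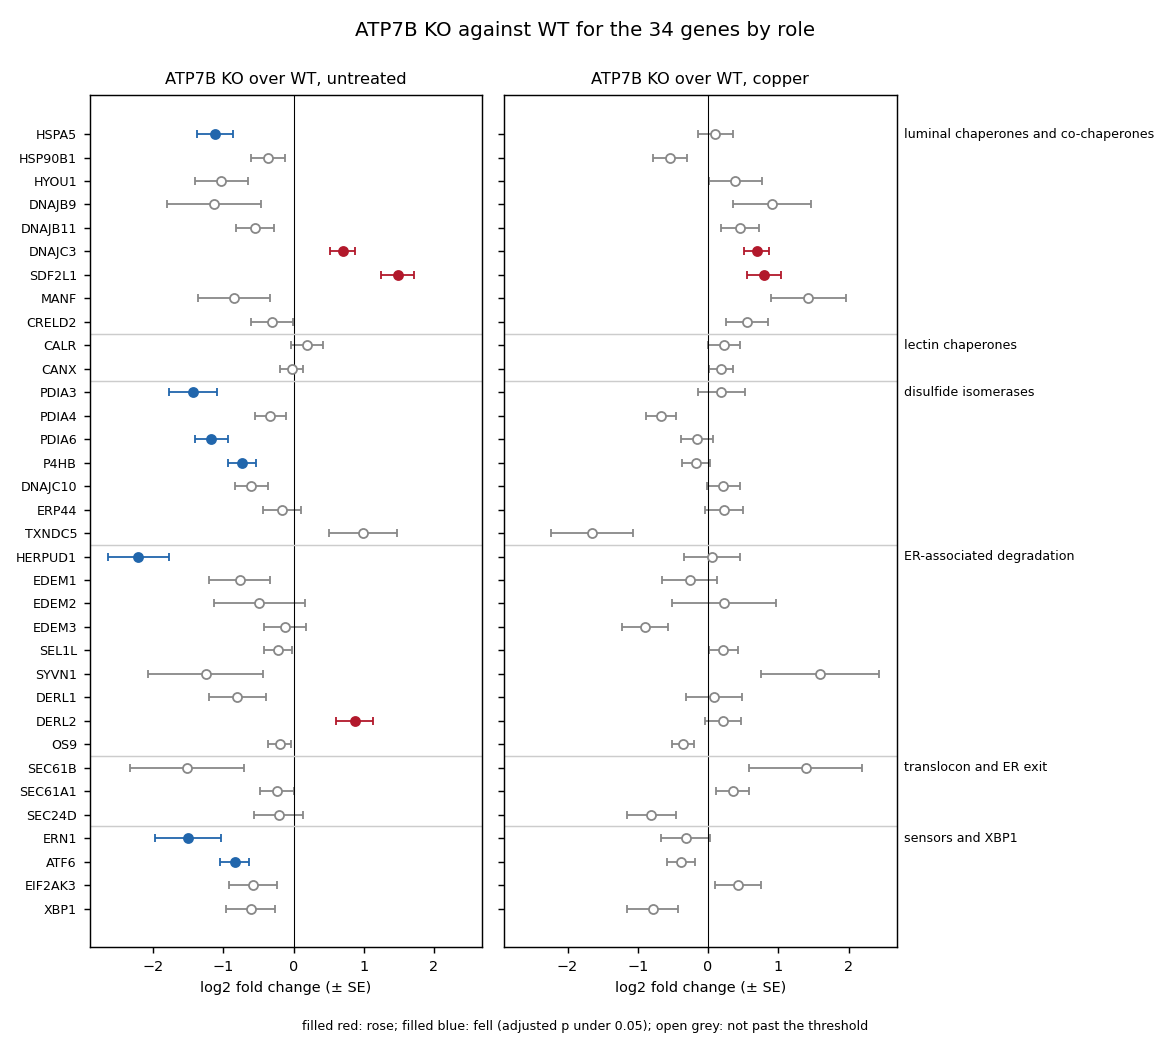
Log2 fold change of each member in KO against WT, untreated in the left panel and in copper in the right, with bars of 1 SE and filled points for members past the threshold. HERPUD1 lies furthest to the left untreated (-2.21) and SDF2L1 furthest to the right (1.48), while in copper HERPUD1 lies at 0.06.

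Of the 7 disulfide isomerases and their relatives, PDIA4 (ERp72) fell with copper in both lines. It was at 126, 133 and 123 CPM in the copper-treated KO libraries and 423, 369.6 and 341 CPM in the untreated KO libraries. WT levels were 259, 179 and 154 CPM in the copper-treated WT libraries and 425, 444 and 439 CPM in the untreated WT libraries. Copper-treated libraries lay below untreated ones in each line, and copper-treated KO lay lowest. PDIA4 changed by -1.46 ± 0.22 (adjusted p = 0.00061) with copper in KO and -1.11 ± 0.22 (adjusted p = 0.006) in WT, or 2.74-fold and 2.16-fold lower, under all 18 alternatives. The difference of the copper effects was -0.34 ± 0.31 (adjusted p = 0.43).

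PDIA6 (P5), which also acts on IRE1, stood at 541, 552 and 552 CPM in the copper-treated KO libraries and 511, 419 and 884 CPM in the untreated KO libraries. WT cells had 555, 596 and 649.5 CPM in the copper-treated WT libraries and 1244.5, 1208 and 1259.8 CPM in the untreated WT libraries. The untreated WT libraries lay above all others. PDIA6 fell with copper in WT at -1.02 ± 0.23 (adjusted p = 0.013) and in untreated KO against WT at -1.17 ± 0.24 (adjusted p = 0.0041), and was at -0.01 ± 0.23 (adjusted p = 0.98) with copper in KO. The WT copper call ended without copper-treated WT replicate 2 or untreated WT replicate 1 or 3 (adjusted p 0.053 to 0.059). The fall in untreated KO passed under all 18 alternatives and was -0.69 ± 0.11 without the libraries that stood apart. Its last 500 exonic bases are also covered on the other strand by ATP6V1C2, which had 5 counts in all, and the sources used here do not give the strand setting.

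PDIA3 (ERp57), which works with the lectin chaperones, was at 265, 244 and 292 CPM in the copper-treated KO libraries and 121, 126 and 350.3 CPM in the untreated KO libraries. WT levels were 163, 249 and 272 CPM in the copper-treated WT libraries and 472, 474.5 and 509 CPM in the untreated WT libraries. Untreated KO replicates 1 and 2 were the lowest, and untreated WT lay above all others. PDIA3 fell in untreated KO against WT at -1.43 ± 0.34 (adjusted p = 0.009) under all 18 alternatives, at -2.02 without untreated KO replicate 3 and -0.67 ± 0.12 without the libraries that stood apart. With copper it was at -1.07 ± 0.34 (adjusted p = 0.051) in WT. P4HB, which encodes PDI itself, was at 597, 563 and 575 CPM in the copper-treated KO libraries and 413, 668 and 618 CPM in the untreated KO libraries. WT values were 594, 679 and 630.5 CPM in the copper-treated WT libraries and 858, 874 and 876 CPM in the untreated WT libraries. The untreated WT libraries lay above all others. It fell in untreated KO against WT at -0.74 ± 0.20 (adjusted p = 0.017), a call that ended without untreated KO replicate 1 or untreated WT replicate 2 or 3 (adjusted p 0.051 to 0.059).

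TXNDC5 (ERp46), an isomerase with several thioredoxin-like domains, was at 2.49, 2.51 and 1.99 CPM in the copper-treated KO libraries and 22.9, 26.6 and 6.71 CPM in the untreated KO libraries. In WT it was at 9.61, 8.28 and 4.26 CPM in the copper-treated WT libraries and 6.33, 9.66 and 8.70 CPM in the untreated WT libraries. Copper-treated KO libraries were lowest, and untreated KO replicates 1 and 2 were highest. TXNDC5 fell with copper in KO at -2.79 ± 0.56 (adjusted p = 0.0031) under all 18 alternatives, and was at -0.15 ± 0.49 (adjusted p = 0.87) in WT. Without the libraries that stood apart the KO value was -1.33. The readthrough gene BLOC1S5-TXNDC5 shares 495 of its last 500 exonic bases and had 0 counts. The sources used here do not say how shared reads were counted, and TXNDC5 had 7, 6 and 5 counts in the copper-treated KO libraries. Its level is therefore uncertain. DNAJC10 (ERdj5), a reductase that aids degradation, ran from 44.0 to 108 CPM, and ERP44, which returns proteins from the Golgi, from 10.7 to 26.9 CPM, and neither passed in any comparison.

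Of the ERAD members, HERPUD1 had the largest change with copper in KO and between the untreated lines. It encodes a membrane protein that gathers the HRD1 ligase complex and is itself induced by ER stress. HERPUD1 stood at 135, 118 and 119 CPM in the copper-treated KO libraries and 11.1, 7.17 and 41.5 CPM in the untreated KO libraries. WT cells had 80.6, 135 and 136 CPM in the copper-treated WT libraries and 91.7, 93.8 and 85.3 CPM in the untreated WT libraries. The untreated KO libraries lay below all others, with replicate 3 well above replicates 1 and 2. HERPUD1 rose 6.35-fold with copper in KO, a log2 fold change of 2.67 ± 0.44 (adjusted p = 0.001). It fell 4.63-fold in untreated KO against WT, at -2.21 ± 0.44 (adjusted p = 0.0038), and was at 0.40 ± 0.40 (adjusted p = 0.54) with copper in WT. Both calls passed under all 18 alternatives. Without untreated KO replicate 3 they were 3.74 and -3.30, and without the libraries that stood apart 1.76 ± 0.17 and -1.32 ± 0.17. In copper the lines were at 0.06 ± 0.40 (adjusted p = 0.94).

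EDEM3, which trims mannose from misfolded glycoproteins, was at 5.34, 7.95 and 9.16 CPM in the copper-treated KO libraries and 27.7, 11.3 and 17.1 CPM in the untreated KO libraries. In WT it was at 13.9, 15.7 and 11.2 CPM in the copper-treated WT libraries and 17.1, 20.1 and 19.1 CPM in the untreated WT libraries. The copper-treated KO libraries lay below all others. EDEM3 fell with copper in KO at -1.22 ± 0.33 (adjusted p = 0.014), a call that ended without copper-treated KO replicate 1 or untreated KO replicate 1 (adjusted p 0.061 to 0.07). DERL2, a Derlin of the retrotranslocation channel, was at 18.9, 27.6 and 26.7 CPM in the copper-treated KO libraries and 20.1, 36.9 and 24.4 CPM in the untreated KO libraries. WT levels were 19.8, 20.5 and 21.3 CPM in the copper-treated WT libraries and 14.8, 13.1 and 12.3 CPM in the untreated WT libraries. The untreated WT libraries lay below all others. DERL2 rose in untreated KO against WT by 0.87 ± 0.26 (adjusted p = 0.026) and was at 0.64 ± 0.26 (adjusted p = 0.12) with copper in WT. Its call ended without untreated KO replicate 2 or any untreated WT replicate (adjusted p 0.061 to 0.083) and with no filter (0.075).

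The other 6 ERAD members passed in no comparison. SEL1L, the adaptor of the ligase SYVN1 (HRD1), ran from 45.9 to 98.3 CPM, and the lectin OS9 from 68.7 to 120 CPM. DERL1 ran from 5.12 to 25.02 CPM, EDEM1 from 2.14 to 7.75 CPM and EDEM2 from 0 to 7.17 CPM. SYVN1 ran from 0 to 22.3 CPM, with untreated KO replicate 1 and copper-treated WT replicate 1 at 0, and shares 398 of its last 500 exonic bases with FAU, which had 31743 counts. Its level is therefore uncertain. Of the 3 members of the translocon and ER exit, SEC61A1, the channel's pore, ran from 144 to 330 CPM, and SEC24D, a cargo adaptor of the COPII coat, from 21.1 to 66.6 CPM. SEC61B, a small channel subunit, was at 123, 105.5 and 107.5 CPM in the copper-treated KO libraries and 4.85, 8.19 and 77.5 CPM in the untreated KO libraries. In WT it was at 5.34, 43.1 and 75.9 CPM in the copper-treated WT libraries and 83.04, 87.5 and 80.6 CPM in the untreated WT libraries. All 3 libraries that stood apart were at 8.19 CPM or lower, and its difference with copper was 1.94 ± 0.82 (adjusted p = 0.086) in KO and -0.98 ± 0.80 (adjusted p = 0.44) in WT.

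**Figure D5:**
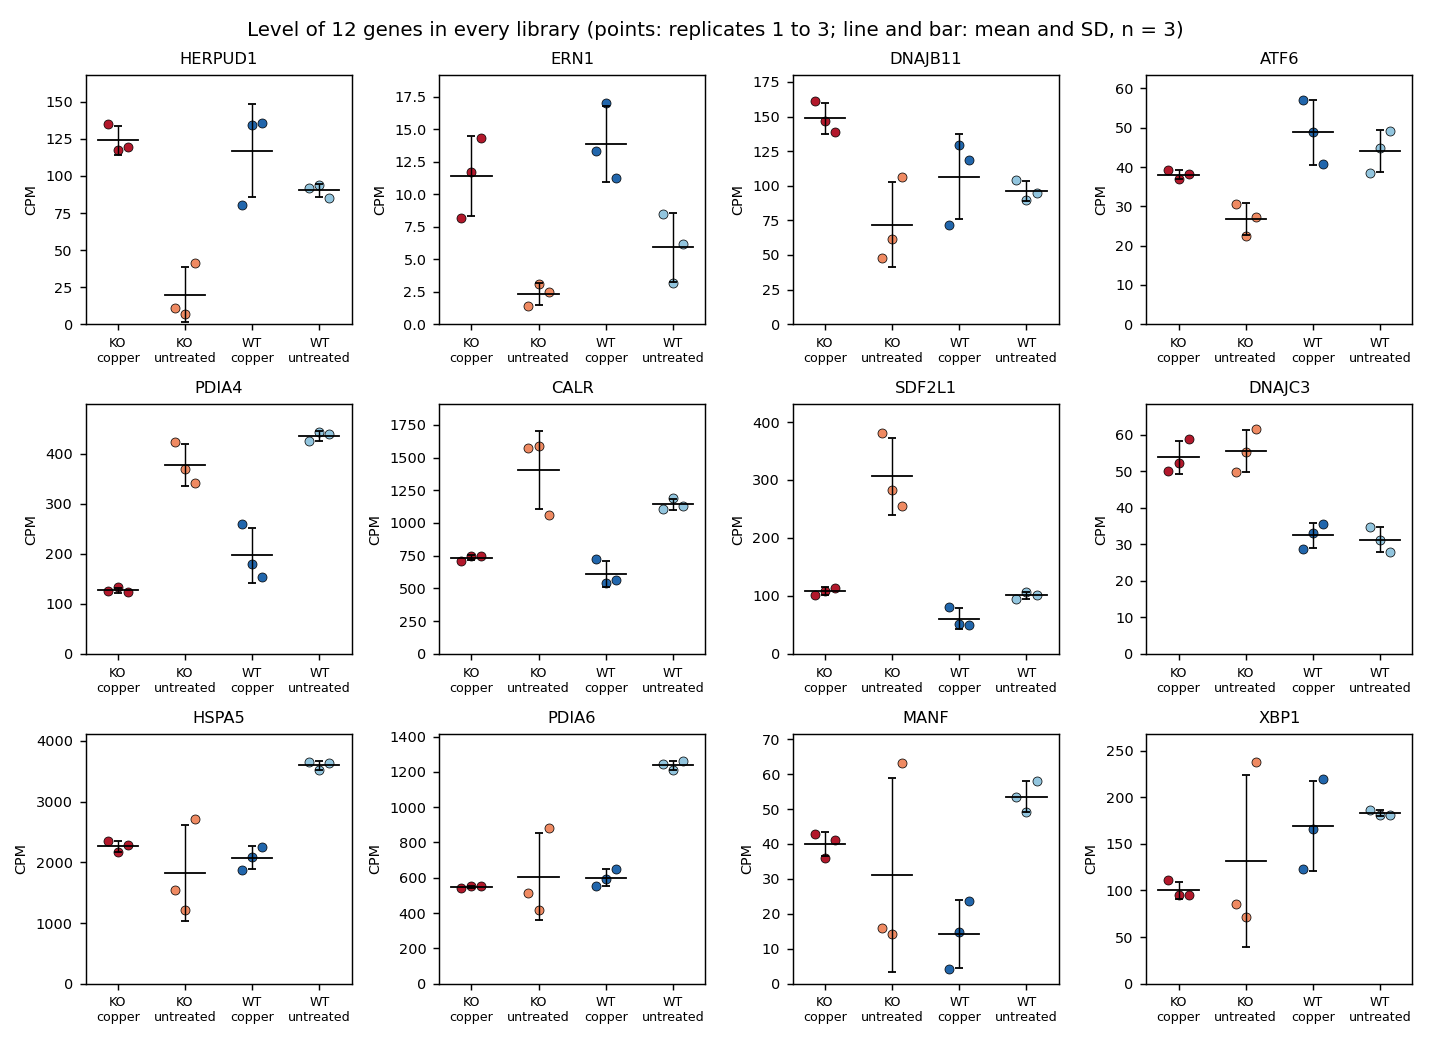
CPM of 12 members in every library on linear axes from 0, with 1 point per library, the group mean as a line, the SD as a bar and the groups along the x axis. HERPUD1 lies at 7.17 to 41.5 CPM in untreated KO and at 80.6 CPM or more in the other 9 libraries, and SDF2L1 is highest in untreated KO.

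A difference in copper effect between KO and WT passed for 1 of the 34 members, HERPUD1, at 2.27 ± 0.59 (adjusted p = 0.049), with copper above untreated by 2.67 in KO and 0.40 in WT. Over all genes 1.26% were higher and 3.67% lower in this test. An unadjusted p under 0.05 held for 12 members, and its share over all genes is not given. The median was 0.58 over the members and 0.02 over all genes, and 24 of 34 were above 0. Next in order of adjusted p were TXNDC5 at -2.64 ± 0.75 (adjusted p = 0.057), PDIA3 at 1.62 ± 0.47 (adjusted p = 0.06) and HSPA5 at 1.22 ± 0.36 (adjusted p = 0.061). The HERPUD1 call ended without any 1 library other than untreated KO replicate 3 (adjusted p 0.053 to 0.12), without which it was 3.29 and 17 members passed. Without the libraries that stood apart HERPUD1 was at 1.12. That fit left untreated KO replicate 3 as the only library of its group and lent it the spread of the rest.

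Of the 34 members 15 were low in all 3 libraries that stood apart and 6 were high in all 3, where 33.3% and 29.7% of all genes were. On log2 CPM, copper-treated WT replicate 1 was measured against replicates 2 and 3 of its group. Untreated KO replicates 1 and 2 were each measured against replicate 3 alone, so a deviation of replicate 3 enters both. The median deviation of the members was -0.18 in copper-treated WT replicate 1 and -0.50 and -0.13 in untreated KO replicates 1 and 2, beside 0.00, -0.10 and -0.09 over all genes. HERPUD1 was at -0.69, -1.72 and -2.28, MANF at -1.91, -1.83 and -1.95 and SEC61B at -3.21, -3.68 and -2.99. TXNDC5 was at 0.67, 1.75 and 1.99, HSP90B1 at 0.64, 0.58 and 0.66 and SDF2L1 at 0.74, 0.69 and 0.28.

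With the libraries that stood apart left out, members that had not passed with all 12 libraries did so in each comparison, and their log2 fold changes in that fit are given in parentheses. With copper in KO these were EDEM1 (1.51) and SEC61B (0.71) above 0 and XBP1 (-1.07), PDIA6 (-0.51) and MANF (-0.48) below. With copper in WT they were DERL2 (0.70), HERPUD1 (0.64) and DNAJB11 (0.42) above 0 and SDF2L1 (-0.95), SYVN1 (-0.84), PDIA3 (-0.83), HSP90B1 (-0.73), HSPA5 (-0.67), HYOU1 (-0.61), SEC61B (-0.42), P4HB (-0.35), CANX (-0.33) and DNAJC10 (-0.28) below. In untreated KO against WT they were SEC24D (-1.15), HSP90B1 (-0.80), PDIA4 (-0.56) and CALR (-0.31), none of them above 0. In KO against WT in copper SYVN1 (1.01), MANF (0.96), SEC61B (0.82), CALR (0.32) and SEC61A1 (0.32) lay above 0 and TXNDC5 (-1.47), XBP1 (-1.03), SEC24D (-0.94), EDEM3 (-0.93), PDIA4 (-0.47), OS9 (-0.40), HSP90B1 (-0.36), PDIA6 (-0.27) and P4HB (-0.26) below. In the difference of the copper effects SEC61B (1.13), MANF (0.92), CALR (0.63), PDIA3 (0.62), HSPA5 (0.58), HSP90B1 (0.44) and P4HB (0.43) lay above 0 and XBP1 (-1.21) below. Of the luminal chaperones and isomerases added for copper in WT, all but the co-chaperone DNAJB11 lay below 0. The share of all genes that passed in each direction in this fit is not given. Neither that direction nor the members listed are therefore a result about the set. All of these values rest on untreated KO replicate 3 alone wherever untreated KO enters.

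Lists of related genes outside the set were counted in the same way, in the fit of all 12 libraries only. Genes of the PERK, ATF4 and CHOP output rose with copper in 8 of 18 cases in KO and 10 of 18 in WT, with 0 falling in either. That is 44.4% and 55.6%, where 15.2% and 8.23% of all genes rose. PERK activity was not measured, and its gene EIF2AK3 passed in no comparison with all 12 libraries, so these rises are not assigned to PERK. The cystine transporter SLC7A11 rose by 3.35 ± 0.24 in KO (adjusted p = 4.3e-06) and 3.37 ± 0.24 in WT (6.6e-06), and SESN2, a stress-induced inhibitor of mTORC1, by 2.14 ± 0.18 (1e-05) and 2.24 ± 0.18 (1.7e-05). In untreated KO against WT 6 fell and 1 rose, or 33.3% and 5.56% beside 14% and 17.9% of all genes, with DDIT3, which encodes CHOP, at -1.99 ± 0.34 (0.0017) and the asparagine synthetase ASNS at -1.75 ± 0.33 (0.0031). Chaperones listed for the HSF1 response rose with copper in 10 of 14 cases in KO and 8 of 14 in WT, or 71.4% and 57.1%. The co-chaperone BAG3 was at 4.33 ± 0.34 in KO and HSPH1 at 4.25 ± 0.27 in WT. Most of the list is cytosolic, but it includes the mitochondrial HSPD1 and HSPE1. HSPA1A and HSPA1B had 0 CPM in every library and were not tested. The median of this list was 1.55 in KO and 1.65 in WT, beside 0.28 and -0.38 for the ER members. In copper, KO against WT, 6 of the chaperones listed for the HSF1 response rose, with DNAJB1 at 2.26 ± 0.34 (adjusted p = 0.0013). Of the PERK, ATF4 and CHOP list 4 fell and 1 rose. The 6 rises are 42.9% and the 4 falls 22.2%, beside 5.77% and 8.03% of all genes.

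Of 27 other ERAD genes, 9 rose and 4 fell with copper in KO, and 6 rose and 0 fell in WT. The rises were 33.3% in KO and 22.2% in WT, above the 15.2% and 8.23% of all genes, and the falls in KO were 14.8%, near the 18.5% of all genes. VCP, the cytosolic segregase that extracts ERAD clients, rose by 0.94 ± 0.18 (adjusted p = 0.0023) and 1.15 ± 0.18 (0.0016), and its cofactor NPLOC4 by 1.64 ± 0.19 (9.5e-05) and 1.15 ± 0.18 (0.0018). FAF2, which recruits VCP to the ER, rose by 1.35 ± 0.17 and 1.30 ± 0.17. Genes of the COPII coat and ER exit fell with copper in 8 of 30 cases in WT and fell in 5 and rose in 3 in KO, and fell in 16 in untreated KO against WT. The falls were 26.7% in WT beside 6.68% of all genes and 53.3% between untreated lines beside 14%, while those in KO, 16.7%, were near the 18.5% of all genes. Between untreated lines LMAN1, a cargo receptor for glycoproteins, was at -1.98 ± 0.29 (0.00081) and SEC23A, a coat subunit, at -1.74 ± 0.35 (0.004). In the untreated KO libraries LMAN1 was at 121.9, 87.0 and 230.7 CPM and SEC23A at 61.0, 43 and 124.8 CPM, so replicates 1 and 2 were lower than replicate 3. In untreated WT they were at 514.1 to 554.9 and 224.9 to 244.9 CPM. The part of replicates 1 and 2 in the list's falls was not tested. KDELR2, the receptor that returns ER residents from the Golgi, was at -1.01 ± 0.19 (0.0041) with copper in WT.

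Of 39 other ER oxidoreductases and chaperones 10 fell and 6 rose with copper in KO, 2 fell in WT, and 12 fell and 4 rose in untreated KO against WT. The falls were 25.6%, 5.13% and 30.8%, beside 18.5%, 6.68% and 14% of all genes, so the share in WT was near the background, as was the 15.4% that rose in KO. P4HA1, a collagen prolyl hydroxylase, was at -2.49 ± 0.22 between untreated lines (adjusted p = 2.9e-05), and ERO1A, which reoxidises PDI, at -2.28 ± 0.28 (0.00026). Among translocon, signal peptidase and oligosaccharyltransferase genes 4 rose and 4 fell of 31 with copper in KO, 1 rose and 4 fell in WT, and 2 rose and 7 fell in untreated KO against WT. The 12.9% in each direction in KO is below the background, and the falls of 12.9% in WT and 22.6% between untreated lines stand beside 6.68% and 14% of all genes. Of 15 signalling genes of the unfolded protein response, copper lowered 4 and raised 3 in KO and lowered 4 in WT, including CREB3L3, the liver-enriched membrane-bound factor, at -1.78 ± 0.32 (0.0017) and -1.27 ± 0.32 (0.019). That is 26.7% falling in each line, beside 18.5% and 6.68% of all genes, and 20% rising in KO, beside 15.2%. Of 12 ER calcium genes 5 (41.7%) fell and 1 (8.33%) rose with copper in KO, beside 18.5% and 15.2% of all genes. Of the ER calcium genes 0 passed in WT in edgeR, where 4 had an unadjusted p under 0.05, a share not given for all genes. Their inositol trisphosphate receptor ITPR2 was at -1.59 ± 0.26 in KO (0.001). Of 6 ER-phagy receptors RETREG2 and RETREG3 fell with copper in KO, at -0.66 ± 0.22 and -0.75 ± 0.25, and CALCOCO1 rose in WT, at 1.94 ± 0.53 (0.028), which is 33.3% falling beside 18.5% and 16.7% rising beside 8.23%.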

How the data were processed

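RNA from 12 HepG2 cultures was sequenced with a QuantSeq 3′ kit, single-end for 75 bases, per the labels' protocols. STAR 2.3.0, HTSeq and build hg19 come from the submitters' processing notes. The sources used here give no annotation release, strand setting or filter. Per gene, the authors deposited unnormalized counts of reads. Such tags near the 3′ end need no length correction, and levels are not compared between genes by length.

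Gene IDs were matched to symbols through the name tables provided. The members and all lists were chosen with earlier results of these data known. All 34 members are named, 20 of them with every library: HSPA5, HERPUD1, XBP1, the 3 sensors, and the 14 others with the smallest adjusted p. SEC61B is also given in every library and was chosen after its values were seen. Beside them stand up to 3 genes per list and comparison, taken by smallest adjusted p. Of the listed symbols, ORAI1 and PECAM1 were not matched.

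Counts were fitted in edgeR 4.0.16 (R 4.3.3) with filterByExpr, trimmed mean of M values (TMM) scaling and a robust quasi-likelihood model of 4 group means over all 12 libraries (8 residual degrees of freedom, biological coefficient of variation 29.06%). Copper was compared with untreated within each line and KO with WT within each treatment, and the interaction compared the copper effects. Benjamini-Hochberg adjustment ran over 11051 genes, with calls at an adjusted p under 0.05. Each SE (standard error) is the size of a log2 fold change over the square root of its F statistic. The steps of each comparison except the interaction were tested on simulated counts.

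Each result for the members was also computed under 18 alternatives: relative log expression factors, no filter, DESeq2 1.42.0, limma voom (limma 3.58.1), the replicate number as a block, each library left out in turn, and, chosen after seeing the data, the 3 libraries that stood apart left out. Counts and values of the other gene lists are from the edgeR fit of all libraries and are not given under the alternatives. Chi-square tests of replicate pairs gave 1.85 to 52.2 per degree of freedom, so none agreed within sampling noise. Without molecular identifiers, the floors given cover counting error only. Promoters are RefSeq windows of GRCh38.p14, a different build from the counts, and are used for sequence alone. Overlapping genes come from the GENCODE v29 annotation, and reads of near copies such as HSP90B3P (432 counts) may be shared with HSP90B1.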

Additional observations from a re-analysis of the deposited data

Results flagged for a closer look

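HERPUD1 was the single member for which the test of a difference in copper response between the lines passed with all 12 libraries. The copper effect in KO minus that in WT was 2.27 ± 0.59 SE on the log2 scale (edgeR adjusted p = 0.049), and all 3 copper-treated KO libraries lay above all 3 untreated KO libraries, while the WT groups overlapped. The value was 1.89 to 3.29 over the fits that left out 1 library, and the call ended in all of these (adjusted p 0.053 to 0.12) except the one without untreated KO replicate 3. The untreated KO libraries, 2 of which stood apart, enter this difference, and their part in it was not tested. Without the libraries that stood apart the value was 1.12. Untreated KO replicate 3 was then the only library of its group, so the spread of that group could not be estimated.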

How the results depend on the processing

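No called member changed sign under any of the 18 alternatives. Calls that held under all 18 were 6 of 11 for copper in KO, 1 of 5 for copper in WT, 5 of 10 for KO against WT untreated, 0 of 2 for KO against WT in copper and 0 of 1 for the interaction. The 5 calls for copper in WT were 9 with no filter, 8 with DESeq2, 8 with limma voom and 18 without the libraries that stood apart. The 2 for KO against WT in copper were 1 with relative log expression factors, 5 with no filter and 16 without those libraries. The 1 for the interaction was 8 with no filter, 6 with DESeq2, where the median over all genes moved to -0.36, and 9 without those libraries. Leaving out 1 library at a time gave 6 to 21 calls for copper in KO, 1 to 11 for copper in WT, 5 to 21 for KO against WT untreated, 0 to 11 for KO against WT in copper and 0 to 17 for the interaction, the highest always without untreated KO replicate 3. Results that passed with the opposite sign without the libraries that stood apart were MANF with copper in KO (-0.48), CALR in KO against WT untreated (-0.31) and HSP90B1 in the interaction (0.44). For all of these the cause was not tested. The share of all genes called under each alternative is not given, so these counts of calls are not a result about the set.

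The replicate numbers did not pair the samples: deviations of same-numbered libraries were correlated at -0.22 to 0.61, and 3 of 18 correlated best with their own number. With the replicate number as a block the counts were 11, 5, 11, 2 and 0 calls. The block lost the HERPUD1 interaction (adjusted p = 0.057), ERN1 with copper in WT (0.064) and ATF6 with copper in KO (0.053).

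Depth limits the members with few counts: in untreated KO replicate 2, DNAJB9, EDEM1, ERN1 and SYVN1 had 3, 4, 3 and 2 counts. TXNDC5 had 7, 6 and 5 counts in the copper-treated KO libraries.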
